A study of Capra hircus with 21 samples.

Results

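The genes described here are the eukaryotic translation initiation factors of the goat (Capra hircus), chosen as every row of the deposited table whose symbol begins with EIF and a digit. The rule found 42 of 19040 genes. It used no measured value, and it takes in genes named for binding, phosphorylating or inhibiting a factor besides the factors themselves. RNA was sequenced from oocytes matured in the animal and from embryos developed in the animal, collected as 2-cell, 4-cell, 8-cell and 16-cell embryos, as morulae and as blastocysts. The labels name no treatment or genetic change in any group, and each of the 7 stages had 3 libraries, lettered A to C. The labels give neither the breed nor the age of the animals, nor the number of oocytes or embryos in a library, nor whether replicate libraries stem from different animals, so p-values measure only the spread between these libraries, which may be technical.

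Translation initiation places a ribosome on the start codon of an mRNA. eIF2, loaded with GTP and the initiator tRNA, joins eIF1, eIF1A, eIF3 and eIF5 on the small ribosomal subunit. The cap-binding protein eIF4E, the scaffold eIF4G and the helicase eIF4A bring that subunit to the 5′ cap, it scans to the start codon, and eIF5B joins the large subunit to it. Oocytes store mRNA and translate it under tight control through maturation and the first cleavages, before the embryo's own genome is transcribed. In cattle that activation is placed around the 8-cell to 16-cell stage, and EIF1AX, the X-linked gene of eIF1A, is used there as a marker of it.

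Levels are given as RPM, the reads of a gene per 1000000 of the implied read total of its library, computed from the deposited values. The implied total was 24.0 M (morula B) to 66.5 M reads (2-cell C), and 3 reads, taken as the limit of detection, came to 0.0451 to 0.125 RPM. Between 24.4 and 42% of the implied total lay in the listed genes. Blastocyst A and B had the lowest shares, 24.4 and 24.9%, against 40.5% in blastocyst C. On the first principal component (63.2% of the variance over all genes tested), 16-cell C lay at -3.65 against 57.2 and 61.2 for 16-cell A and B. The morula libraries lay at 127 (A), 131 (B) and 38.9 (C), so in both stages the C library was the closest to the stage before. The label of morula A says that its reverse reads were damaged. RPM is a share of the RNA sequenced: a change in RPM does not separate a change of the gene from a change in total RNA, and fewer cells of a type and less RNA per cell cannot be told apart.

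The samples were checked by lists of marker genes. The summed level of 8 oocyte genes was 5894 to 13067 RPM in oocytes, 4838 to 5341 RPM at the 8-cell stage, 849 to 3052 RPM at the 16-cell stage, 43.5 to 1204 RPM among morulae and 3.40 to 20.3 RPM in blastocysts. BTG4 made up most of that sum, with a mean of 2699 RPM at the 8-cell stage and 7537 RPM in oocytes. GDF9, BMP15 and ZP2 ran the other way over that span, with means of 475, 665 and 331 RPM at the 8-cell stage and 157, 342 and 274 RPM in oocytes, and were lower from the 16-cell stage on. The 9 trophectoderm genes summed to 821 to 1502 RPM in blastocysts and 13.2 to 21.1 RPM in oocytes. KRT8 made up most of the blastocyst sum, with a mean of 957 RPM, while CDX2 reached at most 1.35 RPM in any library. TFAP2C had a higher mean at the 16-cell stage, 11.7 RPM, than in blastocysts, 2.62 RPM. The 7 inner cell mass genes summed to 0.778 to 0.971 RPM in oocytes, 86.6 to 237 RPM at the 16-cell stage and 31.3 to 32.4 RPM in blastocysts. KLF17 and PRDM14 led that 16-cell sum, with means of 84.5 and 72.9 RPM. POU5F1 and GATA6 ran the other way, with means of 1.31 and 0.612 RPM at the 16-cell stage and 7.97 and 1.22 RPM in blastocysts. The other genes of that list had lower means in blastocysts than at the 16-cell stage. Of genes of other cells that flushed samples could carry, the 9 cumulus and granulosa cell genes found summed to 1.17 to 3.60 RPM in blastocysts and 33.6 to 58.3 RPM in oocytes, with STAR at the top. The 5 genes of fibroblasts and stroma summed to 0.930 to 3.09 RPM in blastocysts and 110 to 150 RPM in oocytes, with DCN at the top. The 5 genes of blood and immune cells reached no more than 3.55 RPM in any library, and the 5 of oviduct and uterine epithelium no more than 5.43 RPM. The cumulus sum was 21.3 to 47.5 RPM at the 16-cell stage and 15.9 to 25.3 RPM at the 8-cell stage, with TNFAIP6 at means of 24.7 and 6.10 RPM, and the stroma sum was 33.8 to 99.3 and 67.7 to 80.7 RPM. Of the oocyte, cumulus and stroma sums, only that of the oocyte genes lay at the 16-cell stage wholly below its 8-cell range, as several EIF genes below did, while in blastocysts all 3 sums lay below their oocyte ranges. Their part in the results was not tested.

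EIF1AX, which stabilises the scanning ribosome and helps it stop at the start codon, was measured at 62.2, 45.0 and 41.5 RPM in oocytes, 52.5, 42.4 and 32.0 RPM at the 2-cell stage, 33.2, 69.9 and 44.6 RPM at the 4-cell stage and 32.8, 31.7 and 33.3 RPM at the 8-cell stage. The 16-cell libraries reached 448, 182 and 193 RPM. In morulae it was at 347, 197 and 222 RPM and in blastocysts at 90.6, 86.7 and 167 RPM. No 16-cell or morula library overlapped with a library of an earlier stage up to the 8-cell stage, whose highest value was 69.9 RPM in 4-cell B. The mean was 275 ± 150 RPM at the 16-cell stage and 32.6 ± 0.839 RPM at the 8-cell stage (mean ± SD of 3 libraries, as for each stage throughout), a log2 fold change of 2.91 (SE 0.41, adjusted p = 1.13e-05). Fold changes are the later stage over the earlier on the log2(RPM + 1) scale, which understates the change of low genes, and come from limma with Benjamini-Hochberg adjustment over the 10384 genes that reached 1 RPM in at least 3 libraries. A gene is called, and said to rise or fall, where its adjusted p was below 0.05 and its log2 fold change at least 1 in size.

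EIF1AX was called in none of the 3 comparisons up to the 8-cell stage, and morulae did not differ from the 16-cell stage beyond the spread (log2 fold change -0.02, SE 0.41, adjusted p = 0.978). Blastocysts averaged 115 ± 45.3 RPM of EIF1AX, against 255 ± 80.2 RPM in morulae (log2 fold change -1.17, SE 0.41, adjusted p = 0.0280) and 49.5 ± 11.1 RPM in oocytes (log2 fold change 1.15, adjusted p = 0.0184). The fall from morulae was not called without morula A, blastocyst A or blastocyst B (adjusted p up to 0.113), nor under 3 other scalings of the libraries (quantile normalization, median-ratio scaling, and scaling to the reads in the listed genes). The rise over oocytes was not called without oocyte B, oocyte C or blastocyst C (adjusted p up to 0.0858). The table places EIF1AX on a scaffold without a chromosome number, at 49924407 to 49938296, and the build is not given in the sources used here.

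**Figure D1:**
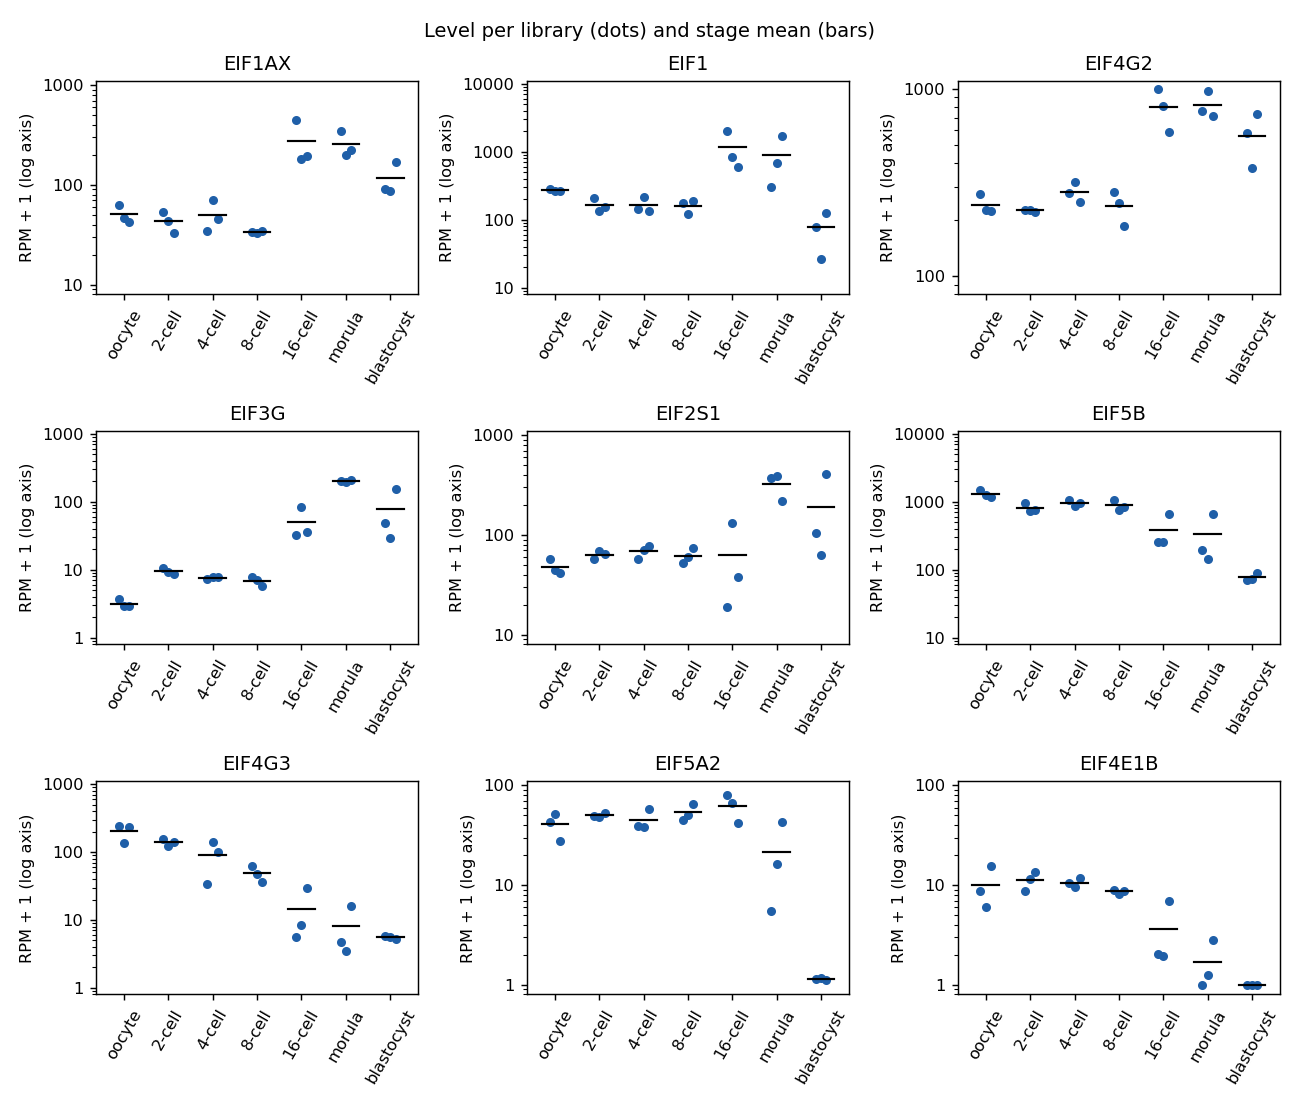
Level of 9 EIF genes in each library (dots, RPM + 1 on log axes that differ between panels) by stage, with the mean of the 3 libraries as a bar. EIF1AX, EIF1 and EIF4G2 step up at the 16-cell stage, EIF2S1 steps up in morulae, EIF5B and EIF5A2 are lowest in blastocysts, and EIF4G3 and EIF4E1B lie lower in morulae and blastocysts than in any library up to the 8-cell stage.

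Among all EIF genes, 37 of 42 reached the level needed for a test, and 35 of the 37 had an adjusted p below 0.05 in the moderated F test over the stages, against a background of 92.5% of all genes tested, a share much the same. The exceptions were EIF4A1 (adjusted p = 0.0852) and EIF3K (adjusted p = 0.181). Among consecutive stages, 33 of the 37 were called at least once. EIF2AK4 and EIF2D joined EIF4A1 and EIF3K among those called at no step.

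Calls were unevenly spread over the steps. In 2-cell embryos 6 EIF genes were higher than in oocytes, against a background of 14.0% of all genes higher, and none was lower (background 0.482%). Between the 2-cell and 4-cell stages no EIF gene and no other gene was called (background 0%), with 326 genes and 0 EIF genes at an unadjusted p under 0.05. No EIF gene was called between the 4-cell and 8-cell stages either (background 0.289% higher and 0.0963% lower), and 1 had an unadjusted p under 0.05. The libraries of those stages did not overlap for 11 of the 37 EIF genes, against 30.2% of all genes.

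More calls came with the 16-cell stage, where 13 EIF genes were higher than at the 8-cell stage and 7 were lower. The background was 15.4% of all genes higher and 30.7% lower, 46.1% in all. Libraries of these stages did not overlap for 22 of the 37 EIF genes, against 64.7% of all genes. The median log2 fold change was 0.34 over the 37 EIF genes and -0.52 over all genes. The split was 16 higher to 4 lower under quantile normalization and under median-ratio scaling, and 14 to 4 when libraries were scaled to the reads in the listed genes. Over all 10384 genes, 1962 were higher and 2156 lower under quantile normalization and 2053 and 1767 under median-ratio scaling. Scaling to the reads in the listed genes gave 1800 and 2508. In morulae 8 were higher than at the 16-cell stage and 2 were lower (background 9.44% higher and 7.59% lower), with medians of 0.29 over the EIF genes and -0.09 over all genes. Without morula A 6 EIF genes were called at this step, and without morula C 17. The share of all genes called moved the same way, from 17.0% to 8.18% without morula A and 33.1% without morula C.

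In blastocysts no EIF gene was higher than in morulae and 19 were lower (background 7.74% higher and 28.1% lower, 35.9% in all). The medians were -1.17 over the EIF genes and -0.50 over all genes. Under quantile normalization and median-ratio scaling those over the EIF genes were -0.36 and -0.38, with 6 falls called among the 37 under each. These scalings called 1635 and 1540 of all 10384 genes lower, a share near that of the EIF genes. Blastocysts against oocytes gave 13 higher and 13 lower (background 20.8% higher and 36.6% lower, 57.4% in all), with medians of 0.02 over the EIF genes and -0.44 over all genes. That split was 17 to 7 under quantile normalization and 15 to 9 under median-ratio scaling. Over all genes it was 3002 to 3114 under the first and 2960 to 3324 under the second. For the 2-cell stage against oocytes, the median over the EIF genes was 0.38 as reported but -0.08 and -0.35 under those scalings, which called 0 and 2 EIF genes, the 2 of them lower, so the direction at that step depends on the scaling. There, 177 of all 10384 genes were higher and 173 lower under quantile normalization, and 203 and 300 under median-ratio scaling. The same scalings moved the median of all genes from 0.46 to 0.01 and 0.00 at that step, from -0.52 to -0.25 and -0.18 at the 16-cell stage, and from -0.50 to -0.05 and -0.05 in blastocysts against morulae.

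**Figure D2:**
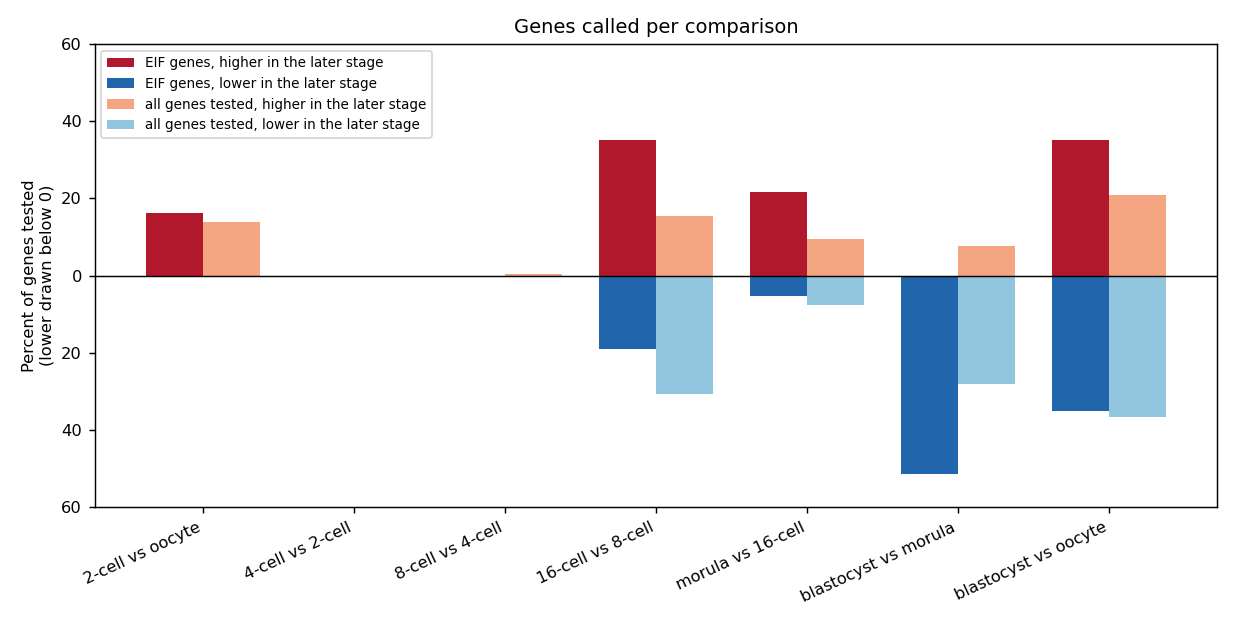
Percent of the 37 EIF genes tested (dark bars) and of all 10384 genes tested (light bars) called higher (above 0) or lower (below 0) in the later stage of each comparison. At the 16-cell stage 13 EIF genes were higher and 7 lower, and in blastocysts against morulae 19 were lower and none was higher.

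The stage of the highest mean level shows the same course as a description. Of the 37 EIF genes tested, 18 were highest in morulae and 7 at the 16-cell stage, 48.6 and 18.9% of them, against 16.7 and 11.0% of all genes tested. Only EIF4ENIF1 was highest at the 8-cell stage, 2.70% of the EIF genes against 23.2% of all genes. EIF5B, EIF4G3, EIF2A and EIF2AK4 were highest in oocytes, and EIF2B4 and EIF2D in blastocysts. Together the 42 genes took 1.15 ± 0.0712% of the reads in listed genes in oocytes, 0.893 ± 0.0298% at the 8-cell stage, 1.60 ± 0.267% at the 16-cell stage, 1.73 ± 0.292% among morulae and 0.793 ± 0.219% in blastocysts. All 16-cell and morula libraries (1.33 to 2.02%) lay above all others, whose highest was 1.21% in oocyte A.

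**Figure D3:**
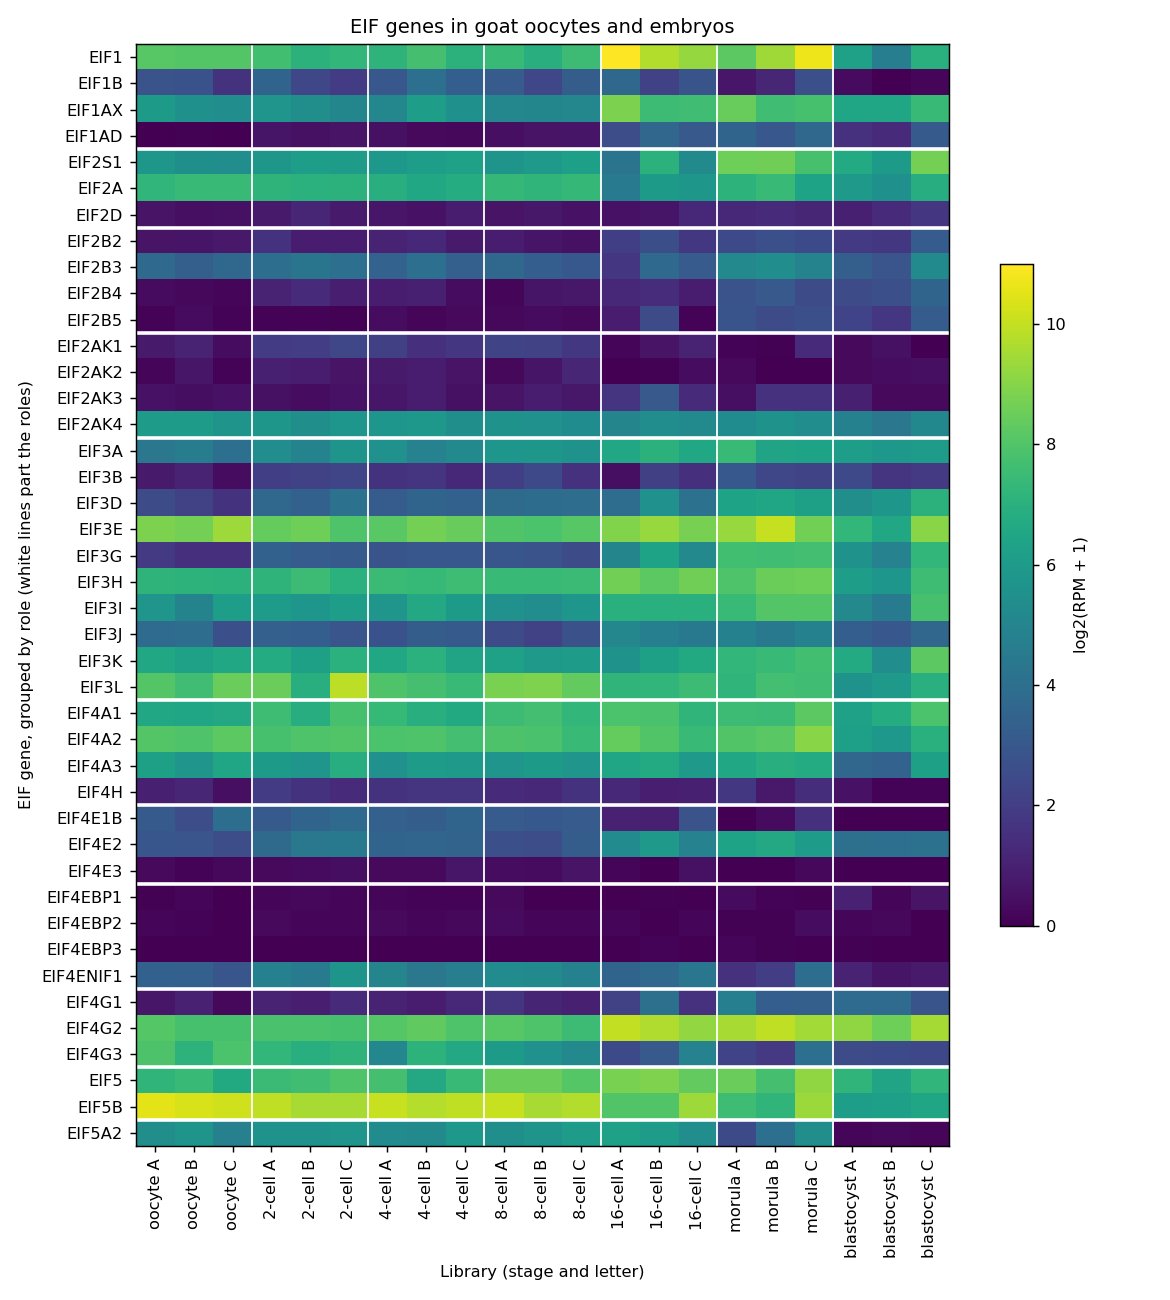
Level of the 42 EIF genes (rows, grouped by role) in the 21 libraries (columns, ordered by stage), as log2(RPM + 1). The 13 genes that rose at the 16-cell stage brighten from the 8-cell to the 16-cell columns, and EIF5A2, EIF4ENIF1 and EIF4E1B darken to the right.

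The eIF1 and eIF1A group holds EIF1, EIF1B, EIF1AX and EIF1AD. All 4 were tested, 3 rose at the 16-cell stage (15.4% of all genes did) and 4 fell in blastocysts against morulae (28.1% of all genes did). EIF1, which guards the choice of the start codon, was at 2036, 835 and 604 RPM at the 16-cell stage, against 176, 119 and 184 RPM at the 8-cell stage (log2 fold change 2.68, SE 0.58, adjusted p = 0.000730). The 3 libraries of each later stage differed widely, with 298, 690 and 1701 RPM of EIF1 in morulae. Blastocysts had 78.1, 25.1 and 126 RPM of EIF1, and no blastocyst library reached the lowest morula library (log2 fold change -3.46, SE 0.58, adjusted p = 6.34e-05). Of the 4 falls in this group at the blastocyst stage, that of EIF1 alone was called under the 3 other scalings. EIF1 spans 41549745 to 41551330 on chromosome 19 in the table.

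EIF1AD, a nuclear protein with an eIF1A-like domain, had 1, 2 and 1 reads in the oocyte libraries, too few for a fold change against oocytes. It is nevertheless among the 13 genes counted above as higher in blastocysts than in oocytes. It was at 4.98, 11.5 and 7.47 RPM at the 16-cell stage, against 0.375, 0.499 and 0.543 RPM at the 8-cell stage, with no overlap (log2 fold change 2.54, SE 0.35, adjusted p = 8.20e-06). Blastocysts had 1.97, 1.46 and 7.55 RPM of EIF1AD and morulae 10.6, 6.96 and 11.8 RPM, where blastocyst C lay within the morula range (log2 fold change -1.41, adjusted p = 0.00282). That fall was not called under quantile normalization or median-ratio scaling.

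EIF1B, a close copy of EIF1, was at 11.7, 3.42 and 6.26 RPM at the 16-cell stage, against 8.04, 4.00 and 8.37 RPM at the 8-cell stage, with overlap and no call. Blastocyst B had no read of EIF1B, and blastocyst A and C had 11 and 4 reads. Its mean was 0.119 ± 0.122 RPM in blastocysts and 4.66 ± 2.25 RPM in oocytes (log2 fold change -2.25, SE 0.51, adjusted p = 0.000571). Reads may be shared between EIF1 and EIF1B, whose sequences are alike, since how multiply matching reads were counted is not given in the sources used here.

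The ternary complex that delivers the initiator tRNA is represented by EIF2S1, the alpha subunit of eIF2 and the target of the stress kinases. EIF2S1 was at 17.8, 132 and 36.9 RPM at the 16-cell stage, which spanned the 8-cell values of 51.3, 58.6 and 73.0 RPM. Morulae had 376, 387 and 219 RPM of EIF2S1, all above every earlier library, and the log2 fold change over the 16-cell stage was 2.80 (SE 0.59, adjusted p = 0.00220). Blastocysts spread from 62.0 RPM in B and 103 RPM in A to 411 RPM in C, a mean of 192 ± 191 RPM against 46.6 ± 8.21 RPM in oocytes (log2 fold change 1.56, SE 0.59, adjusted p = 0.0234). Without blastocyst C, oocyte B or oocyte C that call was lost (adjusted p up to 0.216). EIF2S1 lies on chromosome 10, at 23881842 to 23900038.

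EIF2A is a separate protein that can bring the initiator tRNA by another route. It fell at the 16-cell stage, to 21.6, 62.6 and 55.4 RPM, against 160, 147 and 159 RPM at the 8-cell stage (log2 fold change -1.85, SE 0.42, adjusted p = 0.00102). It was higher again in morulae, at 138, 173 and 82.3 RPM (log2 fold change 1.54 over the 16-cell stage, SE 0.42, adjusted p = 0.0122), a call lost without 16-cell A, morula A or morula B (adjusted p up to 0.0848). Blastocysts averaged 72.3 ± 36.2 RPM of EIF2A and oocytes 163 ± 13.6 RPM (log2 fold change -1.27, adjusted p = 0.0104), a fall not called under the 3 other scalings. EIF2D, another tRNA carrier, stayed between 0.384 and 2.36 RPM in all libraries and was not called in any of the 7 comparisons.

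eIF2B recharges eIF2 with GTP, and 4 of its subunits were tested. EIF2B3, EIF2B4 and EIF2B5 rose in morulae (9.44% of all genes did), and EIF2B2 rose a step earlier (15.4% of all genes did). EIF2B3, of the gamma subunit, was at 35.2, 40.3 and 29.4 RPM in morulae, against 2.34, 12.7 and 7.84 RPM at the 16-cell stage (log2 fold change 2.27, SE 0.51, adjusted p = 0.00350). EIF2B4, of the delta subunit, was at 6.06, 7.5 and 4.82 RPM in morulae, against 1.33, 1.66 and 0.861 RPM (log2 fold change 1.64, SE 0.29, adjusted p = 0.000486). For both genes the stages did not overlap.

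EIF2B5, of the catalytic epsilon subunit, averaged 5.45 ± 0.798 RPM in morulae and 1.84 ± 2.44 RPM at the 16-cell stage, where 16-cell B had 4.63 RPM and 16-cell C 0.0931 RPM. Its rise (log2 fold change 1.53, adjusted p = 0.00914) was not called without 16-cell C (adjusted p = 0.0744). EIF2B2, of the beta subunit, averaged 3.58 ± 1.45 RPM at the 16-cell stage and 0.592 ± 0.216 RPM at the 8-cell stage (log2 fold change 1.49, SE 0.33, adjusted p = 0.00105). Against oocytes, blastocysts were higher in EIF2B2, EIF2B4 and EIF2B5, with log2 fold changes of 1.65, 2.68 and 2.20 (adjusted p up to 0.000171), where 20.8% of all genes were higher. EIF2B3, with 17.2 ± 16.6 RPM in blastocysts and 11.1 ± 1.71 RPM in oocytes, was not called in that comparison.

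The eIF2 alpha kinases sense stress and halt initiation. EIF2AK1, the haem-regulated kinase, was at 2.85, 3.0 and 4.02 RPM at the 2-cell stage, against 0.720, 1.09 and 0.277 RPM in oocytes (log2 fold change 1.36, SE 0.32, adjusted p = 0.00584), a rise not called under quantile normalization or median-ratio scaling. In 16-cell embryos it was at 0.137, 0.478 and 1.07 RPM, against 3.81, 3.35 and 2.41 RPM at the 8-cell stage (log2 fold change -1.45, SE 0.32, adjusted p = 0.000835). EIF2AK3, the kinase of the endoplasmic reticulum known as PERK, averaged 3.75 ± 3.20 RPM at the 16-cell stage and 0.650 ± 0.175 RPM at the 8-cell stage (log2 fold change 1.33, SE 0.34, adjusted p = 0.00291). Its rise leaned on 16-cell B, at 7.42 RPM, and was not called without that library. EIF2AK4, the amino acid sensor GCN2, averaged 26.7 ± 7.14 RPM in blastocysts and 60.8 ± 8.36 RPM in oocytes (log2 fold change -1.18, adjusted p = 0.00270), also not called under the 3 other scalings. EIF2AK2, the kinase PKR that answers to double-stranded RNA, reached at most 1.29 RPM and was not tested.

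eIF3 is the large scaffold that holds the initiation complex together. Of 13 subunit genes sought, 10 were found, and all 10 were tested: 5 rose and 1 fell at the 16-cell stage, 3 rose in morulae, and 6 fell in blastocysts against morulae, though none of these 6 under quantile normalization or median-ratio scaling. Of all genes, 15.4% rose and 30.7% fell at the first of these steps, 9.44% rose at the next and 28.1% fell at the last. EIF3G, of an RNA-binding subunit, had its levels in steps. It was at 2.69, 1.90 and 1.90 RPM in oocytes, 9.54, 8.20 and 7.61 RPM at the 2-cell stage and 6.77, 5.97 and 4.74 RPM at the 8-cell stage. It then reached 31.4, 82.5 and 34.8 RPM at the 16-cell stage and 200, 198 and 209 RPM in morulae.

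None of these stages of EIF3G overlapped with the one given before it, though the step at the 2-cell stage (log2 fold change 1.58 over oocytes, SE 0.46, adjusted p = 0.0199) was not called under quantile normalization or median-ratio scaling. The log2 fold changes were 2.76 at the 16-cell stage over the 8-cell stage (SE 0.46, adjusted p = 6.74e-05) and 2.15 in morulae over the 16-cell stage (SE 0.46, adjusted p = 0.00265). Blastocysts had 48.5, 28.4 and 156 RPM of EIF3G, below the morulae (log2 fold change -1.73, adjusted p = 0.00456). They were above oocytes by a log2 fold change of 4.28 (SE 0.46, adjusted p = 5.43e-08), and no library of either stage left out changed that call. EIF3G is on chromosome 7, at 94576374 to 94581019.

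EIF3D, of the subunit that can itself bind the cap, was at 80.9, 88.3 and 73.9 RPM in morulae, against 14.4, 45.6 and 16.9 RPM at the 16-cell stage (log2 fold change 1.80, SE 0.44, adjusted p = 0.00632). The 2-cell libraries had 12.1, 9.58 and 16.1 RPM of EIF3D and the oocytes 4.76, 3.33 and 2.03 RPM (log2 fold change 1.66, SE 0.44, adjusted p = 0.0116), a rise lost without oocyte C or 2-cell C and under quantile normalization and median-ratio scaling. EIF3D averaged 76.1 ± 48.9 RPM in blastocysts and 3.37 ± 1.36 RPM in oocytes (log2 fold change 4.01, SE 0.44, adjusted p = 7.11e-08). EIF3J, of a subunit held loosely at the decoding centre, was at 32.9, 25.7 and 20.7 RPM at the 16-cell stage, against 4.67, 3.55 and 5.62 RPM at the 8-cell stage (log2 fold change 2.28, SE 0.37, adjusted p = 4.42e-05). It then fell in blastocysts, to 8.69, 6.87 and 11.2 RPM, against 27.1, 20.8 and 27.7 RPM in morulae (log2 fold change -1.41, adjusted p = 0.00375).

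EIF3A, EIF3H and EIF3I rose at the 16-cell stage by log2 fold changes of 1.0, 1.02 and 1.41 (adjusted p up to 0.0351). Leaving out 1 of the 6 libraries concerned lost the call of EIF3A in 3 cases, that of EIF3H in 5 and that of EIF3I in all 6 (adjusted p up to 0.0939). EIF3L moved against them. It was at 144, 150 and 183 RPM at the 16-cell stage and 436, 468 and 325 RPM at the 8-cell stage (log2 fold change -1.35, SE 0.53, adjusted p = 0.0349), a fall not called under the 3 other scalings. A single library stood out in EIF3L, 2-cell C at 962 RPM, against 352 and 118 RPM in 2-cell A and B. EIF3B, of a core subunit, was at 3.14, 3.50 and 3.90 RPM at the 2-cell stage and 0.739, 1.04 and 0.296 RPM in oocytes (log2 fold change 1.44, SE 0.37, adjusted p = 0.00946), a rise not called without oocyte C, with a pseudocount of 5 RPM or under quantile normalization or median-ratio scaling. EIF3E, at 95.5 to 1052 RPM over all libraries, was called only in blastocysts, lower than in morulae and lower than in oocytes by log2 fold changes of -1.70 and -1.34 (adjusted p = 0.00823 and 0.0201). Libraries overlapped in both comparisons, and neither fall was called under quantile normalization or median-ratio scaling. The call against morulae was lost without blastocyst B (adjusted p = 0.0604), and that against oocytes without oocyte C, blastocyst A or blastocyst B (adjusted p up to 0.130). EIF3I averaged 92.6 ± 111 RPM in blastocysts and 233 ± 53.1 RPM in morulae (log2 fold change -2.00, adjusted p = 0.00605), with blastocyst C, at 220 RPM, within the morula range of 171 to 266 RPM.

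Of the eIF4A helicases and their partners, which unwind the leader of an mRNA, none of the 4 tested was called before the blastocyst stage, where 3 were lower than in morulae (28.1% of all genes were). EIF4A2 was at 73.4, 57.1 and 125 RPM in blastocysts, against 260, 288 and 533 RPM in morulae (log2 fold change -2.07, SE 0.38, adjusted p = 0.000190). EIF4A3, the helicase of the exon junction complex, was at 11.3, 10.1 and 74.0 RPM in blastocysts, against 94.5, 121 and 107 RPM in morulae (log2 fold change -2.31, SE 0.52, adjusted p = 0.00115). Both calls held under the 3 other scalings and without any 1 library. EIF4A1, with 141 ± 84.3 RPM in blastocysts and 222 ± 69.3 RPM in morulae, was not called in any of the 7 comparisons. EIF4H, which stimulates eIF4A, stayed at or below 2.87 RPM. Its fall, the last of the 3, was not called without morula A, with a pseudocount of 5 RPM or under quantile normalization or median-ratio scaling.

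The cap-binding genes moved apart. EIF4E2, also called 4EHP and known to bind the cap without recruiting the eIF4G scaffold, was at 38.4, 60.8 and 28.2 RPM at the 16-cell stage, against 5.49, 5.03 and 8.57 RPM at the 8-cell stage (log2 fold change 2.52, SE 0.35, adjusted p = 7.53e-06). It was at 81.6, 97.5 and 67.2 RPM in morulae. Blastocysts had 15.5, 15.4 and 16.8 RPM of EIF4E2, well below them (log2 fold change -2.29, SE 0.35, adjusted p = 2.19e-05). The 16-cell and blastocyst steps were called under the 3 other scalings and without any 1 library. An earlier rise, to 18.0 ± 4.23 RPM at the 2-cell stage against 6.06 ± 0.899 RPM in oocytes (log2 fold change 1.41, adjusted p = 0.00798), was not called under quantile normalization or median-ratio scaling.

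EIF4E1B encodes a cap-binding protein described as oocyte-specific in frogs and mice. It was at 7.68, 5.10 and 14.6 RPM in oocytes and 7.88, 7.20 and 7.82 RPM at the 8-cell stage. At the 16-cell stage it was at 1.02 and 0.930 RPM in A and B but 6.0 RPM in C, the library nearest to the 8-cell stage (log2 fold change against the 8-cell stage -1.52, SE 0.44, adjusted p = 0.00694). No read of EIF4E1B was counted in any blastocyst library, and taking 3 reads per library as the limit it was at least 134-fold lower in blastocysts than in oocytes. EIF4E3 reached at most 0.596 RPM and was not tested, and EIF4E itself was not analysed here.

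EIF4ENIF1 encodes 4E-T, which carries eIF4E into the nucleus and holds capped mRNA in a repressed state. It was at 27.0, 21.1 and 50.7 RPM at the 2-cell stage, against 9.65, 9.34 and 6.64 RPM in oocytes (log2 fold change 1.75, SE 0.47, adjusted p = 0.0129), a rise lost without oocyte C or 2-cell C and under quantile normalization and median-ratio scaling. It was lower again at the 16-cell stage, at 10.5, 12.7 and 18.7 RPM, against 38.0, 37.3 and 27.7 RPM at the 8-cell stage (log2 fold change -1.26, adjusted p = 0.0277), though not under the 3 other scalings. Morulae had 1.96 and 3.04 RPM in A and B and 14.5 RPM in C, and their call against the 16-cell stage (log2 fold change -1.35, SE 0.47, adjusted p = 0.0466) was lost in 17 of the 21 fits that left out a library (adjusted p up to 0.282). Blastocysts averaged 0.794 ± 0.265 RPM of EIF4ENIF1 and oocytes 8.54 ± 1.66 RPM (log2 fold change -2.41, adjusted p = 0.000122). The inhibitors of eIF4E under mTOR control, EIF4EBP1, EIF4EBP2 and EIF4EBP3, were at or below 1.02, 0.305 and 0.107 RPM in every library, and their levels were not tested.

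The 3 eIF4G genes encode scaffolds that bridge the cap and the ribosome. EIF4G2, whose protein DAP5 lacks the site for eIF4E, was at 997, 811 and 586 RPM at the 16-cell stage, against 279, 246 and 183 RPM at the 8-cell stage (log2 fold change 1.74, SE 0.36, adjusted p = 0.000540). Morulae had 757, 974 and 713 RPM and blastocysts 577, 377 and 731 RPM of EIF4G2, all above the highest library before the 16-cell stage, 317 RPM in 4-cell B. EIF4G3 was lower in every library from the 16-cell stage on than in any library before it. It was at 244, 137 and 237 RPM in oocytes, 62.0, 46.0 and 35.1 RPM at the 8-cell stage, 4.61, 7.47 and 28.2 RPM at the 16-cell stage, 3.69, 2.5 and 15.3 RPM in morulae and 4.75, 4.55 and 4.28 RPM in blastocysts. Morula A and B lay below all blastocyst libraries and morula C above them.

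The log2 fold change of EIF4G3 was -2.09 at the 16-cell stage over the 8-cell stage (SE 0.59, adjusted p = 0.00540) and -5.18 in blastocysts over oocytes (SE 0.59, adjusted p = 1.18e-07). EIF4G1 averaged 10.9 ± 4.00 RPM in blastocysts and 0.598 ± 0.409 RPM in oocytes (log2 fold change 2.87, SE 0.49, adjusted p = 2.37e-05). Its rise at the 16-cell stage, to 3.48, 15.9 and 1.95 RPM against 2.25, 1.21 and 0.955 RPM at the 8-cell stage, overlapped between the stages and was lost without 8-cell B, 8-cell C or 16-cell B (adjusted p up to 0.255). EIF4G2 is on chromosome 15 at 40479703 to 40492731, EIF4G3 on chromosome 2 at 4124160 to 4352310 and EIF4G1 on chromosome 1 at 82532196 to 82553366.

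Ratios between related genes within a library do not depend on how libraries are scaled, apart from the added 1 RPM, and their change across stages does not depend on gene length. Of 10 pairs sought, 5 could be formed. The log2 ratio of EIF4G3 to EIF4G1 averaged 7.0 ± 0.80 in oocytes, 6.02 ± 0.21 at the 2-cell stage, 5.23 ± 1.14 at the 4-cell stage, 4.30 ± 0.11 at the 8-cell stage, 0.88 ± 2.20 at the 16-cell stage, -1.09 ± 1.64 among morulae and -1.04 ± 0.50 in blastocysts (permutation test of the F ratio over stages, 100000 resamples, adjusted p = 3.33e-05 over 5 pairs). The ratio of EIF4A2 to EIF4A1 was 1.54 ± 0.03 in oocytes, between 0.21 and 0.89 in the stage means from the 2-cell stage to the morula, and -0.64 ± 0.50 in blastocysts (permutation p = 1e-05, the smallest that the resamples can give, adjusted p = 2.50e-05). EIF1B to EIF1 averaged -3.90 ± 0.25 at the 4-cell stage and -7.95 ± 0.36 in morulae (permutation p = 1e-05, adjusted p = 2.50e-05). In blastocysts, where EIF1B had at most 11 reads, the added 1 RPM sets that ratio, and its order against morulae cannot be read. The stage means of EIF4G2 to EIF4G1, 5.57 ± 0.98 in blastocysts and 7.26 ± 0.40 in oocytes at the ends, did not pass the test (permutation adjusted p = 0.0955). That p was 0.0170 without 16-cell B, 0.0436 without blastocyst C and 0.0219 with a pseudocount of 0.1 RPM, so the outcome depends on these choices. EIF4G1 averaged 0.598 RPM in oocytes and 1.08 to 1.47 RPM in the stage means from the 2-cell to the 8-cell stage. The added 1 RPM therefore holds down the ratios to EIF4G1 at those stages. EIF4EBP2 to EIF4EBP1, both so low that the added 1 RPM holds the ratio near 0 (stage means -0.46 to 0.14), gave a permutation adjusted p of 0.0955, and 0.00593 without blastocyst B, from which nothing is read. Near-identical stretches of EIF4A1 and EIF4A2 may share reads.

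**Figure D4:**
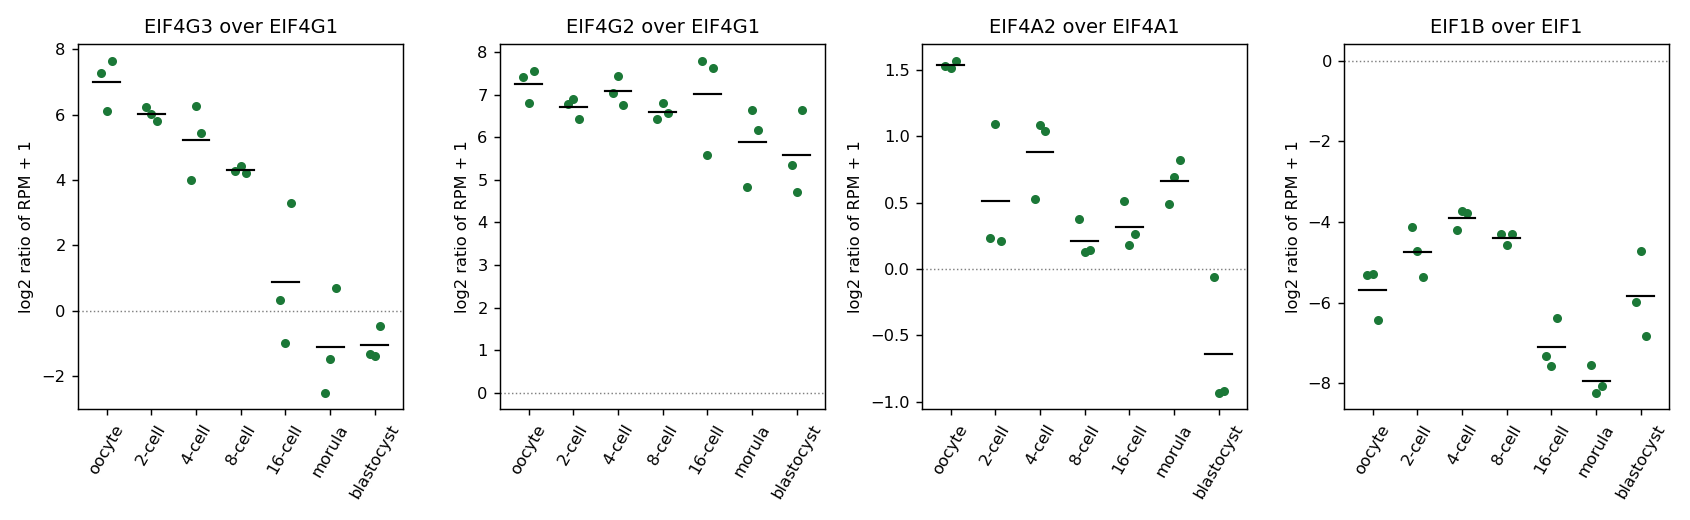
The log2 ratio of RPM + 1 between related genes in each library (dots), by stage, with the mean of 3 libraries as a bar and a dotted line at 0. EIF4G3 over EIF4G1 averaged 0.88 at the 16-cell stage and 4.30 at the 8-cell stage, while EIF4G2 over EIF4G1 did not pass the test.

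EIF5 makes eIF2 hydrolyse its GTP, and EIF5B then joins the large subunit. EIF5 was at 444, 471 and 324 RPM at the 16-cell stage and 354, 352 and 270 RPM at the 8-cell stage, with overlap and no call (log2 fold change 0.34, adjusted p = 0.503). It was at 146, 83.6 and 149 RPM in blastocysts, against 351, 212 and 578 RPM in morulae (log2 fold change -1.51, SE 0.42, adjusted p = 0.00570), a fall not called under quantile normalization or median-ratio scaling. EIF5B was at 1484, 1279 and 1189 RPM in oocytes and 1059, 752 and 843 RPM at the 8-cell stage. Among 16-cell libraries it was at 254 and 256 RPM in A and B and 658 RPM in C, and in morulae at 193 and 146 RPM in A and B and 656 RPM in C. The C libraries are those that lay nearer to the preceding stage.

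Against the 8-cell stage the 16-cell log2 fold change of EIF5B was -1.32 (SE 0.47, adjusted p = 0.0223), not called under the 3 other scalings, nor without 8-cell A, 16-cell A or 16-cell B (adjusted p up to 0.1). Blastocysts had 69.5, 72.3 and 90.0 RPM of EIF5B, a log2 fold change of -4.08 against oocytes (SE 0.47, adjusted p = 1.63e-07) that was called in every setting tried. EIF5B is on chromosome 11, at 4378371 to 4450574.

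EIF5A2, a paralogue of the hypusine-bearing factor eIF5A that keeps elongating ribosomes moving, was at 41.9, 50.3 and 27.0 RPM in oocytes and 78.3, 65.2 and 41.2 RPM at the 16-cell stage. Morula C, at 42 RPM, overlapped with the 16-cell stage, while morula A and B were at 4.48 and 15.3 RPM (log2 fold change -1.95, SE 0.50, adjusted p = 0.00895, and 0.0956 without morula A). Blastocysts had 6, 10 and 4 reads of EIF5A2, or 0.133, 0.175 and 0.114 RPM. The log2 fold change against morulae was -3.78 (SE 0.50, adjusted p = 3.82e-06), the largest fall of the EIF genes between consecutive stages, and against oocytes it was -5.11 (SE 0.50, adjusted p = 1.38e-08). EIF5A2 lies on chromosome 1, at 96089536 to 96107397, and EIF5A itself was not analysed here.

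Seen as shares of all EIF reads, which do not depend on how the library was scaled but do reflect transcript length, the make-up of the family differed between early and late stages. EIF5B took 32.1 ± 3.38% of the EIF reads in oocytes, 24.7 ± 2.88% at the 8-cell stage, 7.92 ± 6.02% at the 16-cell stage and 3.61 ± 1.44% in blastocysts. EIF4G2 took 24.6 ± 6.02% in blastocysts and 5.82 ± 0.516% in oocytes. EIF1 peaked at 20.5 ± 9.75% at the 16-cell stage. EIF1AX took 1.2 ± 0.226% in oocytes, 0.919 ± 0.0816% at the 8-cell stage, 4.95 ± 1.79% at the 16-cell stage, 4.39 ± 2.13% among morulae and 4.94 ± 1.04% in blastocysts, so its mean share in blastocysts was not below that in morulae.

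**Figure D5:**
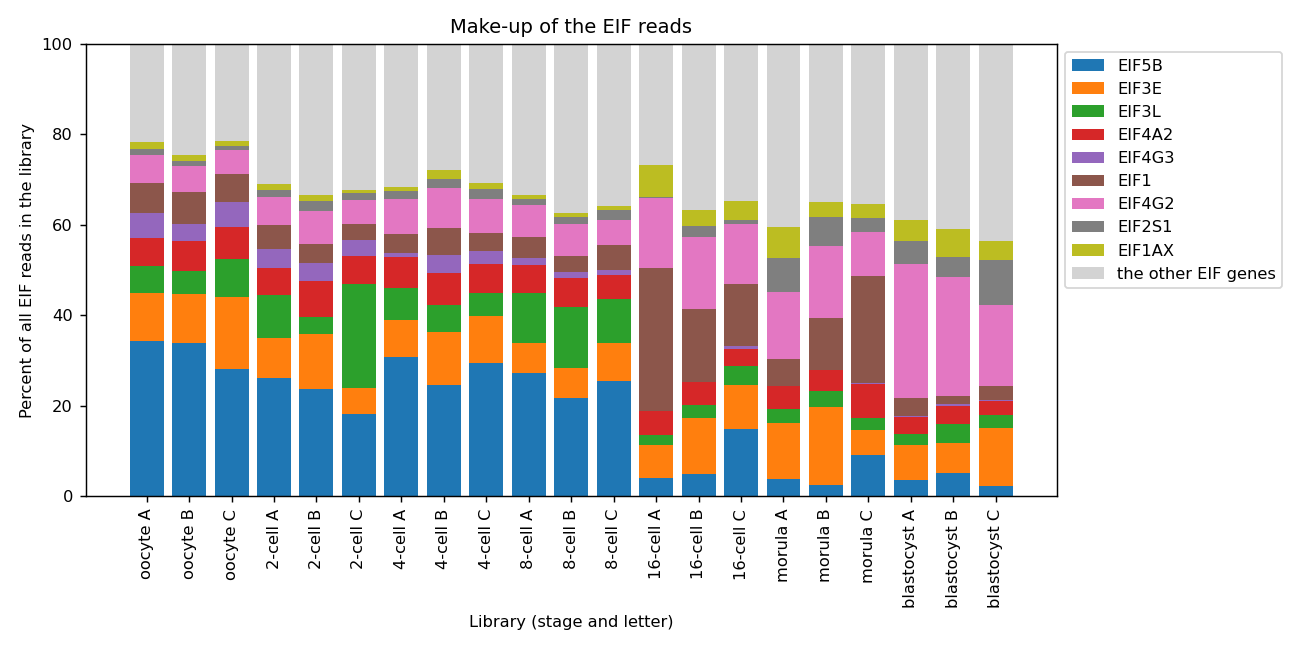
Share of each library's EIF reads taken by 9 named genes and by the others (stacked bars, percent), with libraries ordered by stage. EIF5B (bottom) averaged 3.61% in blastocysts and 32.1% in oocytes, and EIF4G2 24.6% in blastocysts and 5.82% in oocytes.

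The blastocyst libraries were not alike. Of the 40 EIF genes with a read in blastocysts, 27 were highest in blastocyst C and 26 were lowest in blastocyst B. The same was not counted over all genes. Listed genes took 24.4, 24.9 and 40.5% of the implied total in A, B and C, so the order is not read as particular to the EIF genes. The EIF reads were 0.802, 0.571 and 1.0% of the reads in listed genes in A, B and C. The part of this spread in the blastocyst calls was not tested beyond leaving out each library: without blastocyst B 13 EIF genes were lower than in morulae, and without blastocyst C 22. The shares of all genes in those fits are not given here, so the counts are not read as a trait of the EIF genes.

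How firmly the calls stood was read from the 3 other scalings (quantile, median-ratio and reads in listed genes) and from leaving out each of the 21 libraries. Of the 20 calls at the 16-cell stage, 12 held in all of these: EIF1, EIF1AD, EIF1AX, EIF2B2, EIF3G, EIF3J, EIF4E2 and EIF4G2 higher, and EIF2A, EIF2AK1, EIF4E1B and EIF4G3 lower. Of the 12, EIF2AK1, EIF2B2 and EIF4E1B were not called with a pseudocount of 5 RPM, nor EIF3J and EIF4E1B on the deposited RPKM. In morulae 5 of 10 held (EIF2B3, EIF2B4, EIF2S1, EIF3D and EIF3G, all higher), in blastocysts against morulae 5 of 19 (EIF1, EIF4A2, EIF4A3, EIF4E2 and EIF5A2, all lower), in blastocysts against oocytes 17 of 26, and at the 2-cell stage 0 of 6. EIF2B4 in morulae was not called with a pseudocount of 5 RPM or on RPKM, nor EIF5A2 in blastocysts against morulae on RPKM. Among the 17, EIF1AD, EIF1B, EIF2B2, EIF2B5, EIF3B and EIF4E2 were not called with that pseudocount, nor EIF3A and EIF4E2 on RPKM. The 17 include EIF1AD, whose oocyte reads were too few for a fold change.

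Genes of initiation outside the EIF names were read from lists of 63 symbols, 48 of them in the table and 40 tested. At the 16-cell stage 11 of the 40 were higher than at the 8-cell stage and 11 lower, and in blastocysts 13 were higher than in oocytes and 13 lower. Of all genes, 15.4% were higher and 30.7% lower in the first comparison and 20.8% and 36.6% in the second. The lower calls of the 40 lay near the share over all genes and the higher calls above it, a difference that was not tested. These splits were 12 to 7 and 18 to 7 under quantile normalization, and 12 to 4 and 17 to 11 under median-ratio scaling. Over all 10384 genes they were 1962 to 2156 and 3002 to 3114 under the first, and 2053 to 1767 and 2960 to 3324 under the second. Among partners of the scanning ribosome, RACK1, a protein of the small subunit, averaged 137 ± 32.1 RPM at the 16-cell stage and 7.03 ± 0.509 RPM at the 8-cell stage (log2 fold change 4.07, SE 0.42, adjusted p = 1.36e-07). DENR, which recycles the small subunit, and BZW1, a mimic of eIF5 that competes for eIF2, rose at the same step by log2 fold changes of 3.82 and 3.56 (adjusted p = 1.02e-06 and 3.38e-05). ABCE1, the recycling ATPase, averaged 21.9 ± 16.0 RPM in blastocysts and 114 ± 28.1 RPM in oocytes (log2 fold change -2.54, adjusted p = 0.000225).

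Among proteins of the poly(A) tail and the cap, PABPC1, the main cytoplasmic poly(A)-binding protein, averaged 1487 ± 533 RPM in blastocysts and 28.7 ± 10.8 RPM in oocytes (log2 fold change 5.66, SE 0.48, adjusted p = 2.04e-09). PAIP1, which joins that protein to eIF4A, ran the opposite course, with 23.6 ± 18.3 RPM in blastocysts and 8200 ± 258 RPM in oocytes (log2 fold change -8.64, SE 1.02, adjusted p = 3.91e-07). NCBP1, of the nuclear cap-binding complex, fell at the 16-cell stage by a log2 fold change of -2.76 and was lower in blastocysts than in oocytes by -3.27. LARP4, an RNA-binding protein that acts on the tail, rose at the 16-cell stage by a log2 fold change of 3.23. The calls given for RACK1, DENR, BZW1, ABCE1, PABPC1, PAIP1, NCBP1 and LARP4 were made under the 3 other scalings and without any 1 library.

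Of the mTOR and MNK list 0 of 11 tested rose and 4 fell at the 16-cell stage (15.4% and 30.7% of all genes), with a median log2 fold change of -0.68 against -0.52 over all genes. The fall of MTOR was not called under the 3 other scalings or without 8-cell A or 16-cell B, and that of TSC1 not under median-ratio scaling or without 8-cell B. PDCD4, which blocks eIF4A, averaged 10.1 ± 6.07 RPM at the 16-cell stage and 60.9 ± 12.5 RPM at the 8-cell stage (log2 fold change -2.61, SE 0.43, adjusted p = 6.02e-05). MKNK1, a kinase of eIF4E, averaged 1.89 ± 0.608 RPM in blastocysts and 21 ± 1.95 RPM in oocytes (log2 fold change -2.95, adjusted p = 4.65e-07). In the integrated stress response list 3 of 9 rose and 2 fell at the 16-cell stage (15.4% and 30.7% of all genes), with a median log2 fold change of 0.20 against -0.52. The fall of CHAC1 was not called under quantile normalization or median-ratio scaling. DDIT3, a transcription factor of that response, was at 119 ± 45.1 RPM at the 16-cell stage and 37.6 ± 13.1 RPM at the 8-cell stage (log2 fold change 1.62, adjusted p = 0.0167, not called without 8-cell A, 8-cell B or 16-cell B). The other rises of this list were called under the 3 other scalings and without any 1 library. DDIT3 was lower in blastocysts than in oocytes, where 4 of the 9 were lower and 1 higher (36.6% and 20.8% of all genes). IMPACT, which restrains GCN2, was at 6.27 ± 5.43 RPM at the 16-cell stage and 24.7 ± 3.80 RPM at the 8-cell stage (log2 fold change -2.06, adjusted p = 0.00285).

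Of 5 elongation and termination genes tested 4 were higher in blastocysts than in oocytes and 0 lower (20.8% and 36.6% of all genes), with a median log2 fold change of 2.97 against -0.44 over all genes. EEF1D, of the factor that recharges eEF1A, averaged 59.2 ± 19.3 RPM in blastocysts and 0.611 ± 0.162 RPM in oocytes (log2 fold change 5.18, SE 0.47, adjusted p = 4.25e-09). EEF1A1, which carries aminoacyl tRNA to the ribosome, averaged 567 ± 376 RPM in blastocysts and 22.5 ± 4.89 RPM in oocytes (log2 fold change 4.35, adjusted p = 1.99e-08). MTIF2, the mitochondrial initiation factor, fell at the 16-cell stage and was lower in blastocysts than in oocytes, with log2 fold changes of -1.19 and -1.75 (adjusted p = 0.00613 and 0.000112), the first not called under the 3 other scalings and the second not under quantile normalization.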

How the data were processed

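The authors deposited 1 table of RPKM values with a row for each of 19040 genes and a column for each of 21 libraries. Per the submitters' processing notes, the tools were Partek, FastQC and STAR (2.5.3a). Which build, counting rule and strand setting they used is not given in the sources used here.

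The deposited RPKM values held an offset of 0.01 and were divided by the gene's whole span, introns included. Subtracting 0.01 and multiplying by the span gave RPM, and of values below 20 reads 96.7 to 97.8% per library were whole to within 0.05 read, which gave the depth. RPM was tested in place of RPKM because a filter or pseudocount in RPKM falls unevenly on long genes, and RPKM was run as an alternative.

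Genes with at least 1 RPM in 3 libraries (10384, of which 37 EIF genes) were tested on log2(RPM + 1) with limma 3.58.1 (trend and robust variance) in R 4.3.3, in 1 model of the 7 stages. The 7 comparisons were the 6 consecutive steps and blastocyst against oocyte, two-sided. Paralogue ratios were compared by permutation of libraries over stages. Python 3.11.15 with pandas 2.3.3, numpy 2.4.6 and, for the figures, matplotlib 3.10.9 was used, and the fit was tested on simulated data. Given in full are EIF genes called between consecutive stages, up to 6 rises and 6 falls each, and EIF1AX, with up to 4 rises and 4 falls of each list of partners considered, of which 1 gene is not reported here. The members and lists were chosen with earlier results of these data known.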

Additional observations from a re-analysis of the deposited data

How the results depend on the processing

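Over 81 calls of EIF genes, 2562 alternative values were computed: 2343 kept the call, 219 lost it and 0 changed sign. Of these values, 1701 came from leaving out a library, most often one outside the comparison, and 103 of them lost the call. Of the 81 calls, 28 were lost under quantile normalization, 26 under median-ratio scaling and 24 with a pseudocount of 5 RPM. Genes that failed a setting's filter were not counted, so RPKM gave 58 values and a filter of 5 RPM in 3 libraries 74. At the 2-cell stage against oocytes, 6 EIF genes were called, against 3 with a pseudocount of 5 RPM, 0 under quantile normalization, 2 under median-ratio scaling and 0 on the deposited RPKM, and 2 to 7 when a library was left out (2 without oocyte C, 3 without 2-cell C). The share of all genes called was 14.5%, against 5.67, 3.37, 4.84 and 4.77% in these settings in turn. It was 6.05% without oocyte C and 7.69% without 2-cell C. At the 16-cell stage 20 were called, against 10 on RPKM, and of all genes 46.1%, against 35.3%. In morulae 10 were called, against 6 with a pseudocount of 5 RPM and 4 on RPKM, and 6 to 17 when a library was left out. All genes gave 17.0%, against 9.11% with that pseudocount and 16.1% on RPKM. They gave 8.18% without morula A and 33.1% without morula C. In blastocysts against morulae 19 were called, against 6 under quantile normalization and 6 under median-ratio scaling. The share of all genes called either way was 35.9%, against 31.9 and 32.3%. In blastocysts against oocytes 26 were called, against 15 on RPKM, and across all stages 35, against 23 on RPKM, where fewer members reach the filter. For blastocysts against oocytes the share of all genes called was 57.4%, against 48.3% on RPKM. The permutation adjusted p of EIF4G2 to EIF4G1 was 0.0219 with a pseudocount of 0.1 RPM and 0.0170 to 0.244 when a library was left out, and that of EIF4EBP2 to EIF4EBP1 was 0.00593 to 0.454. The cause of these shifts was not tested.

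The letters did not pair the libraries: of 63 same-letter pairs of deviations 13 had a correlation over 0.1 (-0.30 to 0.39), and 7 of 21 libraries correlated best with their own letter. With the letter as a replicate block, 20 EIF genes were called at the 16-cell stage, and all 89 results kept their call. Leaving out 16-cell C and morula C together lost 6 of the 81 calls. Levels near 3 reads (0.0451 to 0.125 RPM) are limited by depth.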
